A study of Homo sapiens with 6 samples.

Results

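The genes described here are the 35 subunits of the machinery that cleaves nascent RNA polymerase II transcripts and ends them, among 15917 genes listed in a comparison of *RBMS3* knockdown with control MDA-MB-231 cells. They were taken by symbol alone. All *CPSF*, *CSTF* and numbered *INTS* genes were included, together with *NUDT21*, *PCF11*, *CLP1*, *FIP1L1*, *WDR33*, *SYMPK*, *PABPN1*, *PAPOLA*, *PAPOLG*, *RBBP6* and *SSU72*, which gave 21 cleavage and polyadenylation genes and 14 Integrator genes. Upon *RBMS3* knockdown, 2 of the 35 (5.71%) passed the test, against 6.19% of all listed genes, and both are Integrator subunits that fell. *INTS13* fell 1.61-fold (95% interval 1.21 to 2.14) and *INTS7* fell 1.48-fold (95% interval 1.16 to 1.88). No cleavage and polyadenylation gene passed. The largest deviation among these 21 was that of *PCF11*, a termination factor, with a log2 fold change of -0.53 (SE 0.23).

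Most protein-coding transcripts are cleaved and polyadenylated by one conserved machine. The cleavage and polyadenylation specificity factor (CPSF) reads the hexamer AAUAAA through *WDR33* and *CPSF4* and cuts the RNA with *CPSF3*, the cleavage stimulation factor (CSTF) binds downstream GU-rich RNA, cleavage factor Im (CFIm) binds UGUA, and cleavage factor IIm (CFIIm) contains *PCF11* and *CLP1*. Poly(A) polymerase then adds the tail. Integrator is built around a related nuclease, *INTS11*, carries a protein phosphatase 2A module, and processes small nuclear RNAs and attenuates transcripts near promoters. Because these factors help to decide where a transcript ends, their levels have been studied as regulators of 3′UTR length in cancer cells. RBMS3 is itself an RNA-binding protein of 3′UTRs, and the study ties it to AU-rich elements with an AUA core.

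The experiment was total RNA-seq of MDA-MB-231, an established line of triple-negative breast cancer cells. It has 6 libraries from lentivirally transduced cells, namely 2 of shCTRL (genotype labelled WT), 2 of shRBMS3-B3 (labelled *RBMS3* KD1) and 2 of shRBMS3-C3 (labelled *RBMS3* KD2), all grown in the same medium. The values are those of the authors' deposited table, which compares knockdown with control cells and has 1 row for each gene, so values of single libraries were not analysed here. With the comparison, 2 biological replicates are stated for knockdown and 2 for control cells, and which of the 4 knockdown libraries entered is not given in the sources used here. The depth of the libraries is unknown, and the replicate spread is seen only through the standard error (SE) of each log2 fold change. *RBMS3* itself had a log2 fold change of -2.37 (SE 0.28), which places it at 19.3% of the control level. Of 6 markers chosen as high in this line, all 6 had a mean normalized count above that of 96.1% of listed genes, *VIM* being the highest at 69335. Of 9 markers chosen as low, *ESR1*, *PGR* and *PTPRC* are not listed and *CDH1* is near the lowest listed level at 31.6, whereas *KRT19* (6846) and *ERBB2* (1557) were well expressed, which goes against that part of the list. *ERBB2* was also higher in knockdown cells, with a log2 fold change of 0.66 (SE 0.20, adjusted p = 0.0302).

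Sites in the 3′UTRs of these genes are shown first, since they carry both the signal that the machinery reads and the element tied to RBMS3. Each line gives 30 bases of the transcript strand of the genome (hg38, GENCODE release 44 transcript), 5′ to 3′, and the capitals mark a match to the AUA motif. The motif was searched on the transcript strand as A, G or T, then A or T, then ATA, then A or T, then A. It can contain the polyadenylation signal AATAAA when A, G or T stands before it, so a match of that form may be either. *INTS13* and *INTS7* are shown because they fell, *PCF11*, *INTS12* and *INTS6* because they had the lowest values among genes that did not pass, and *INTS5* and *CSTF2* because they were the highest of each group.
INTS13, chr12:26905329-26905358, minus strand: ttttgtactaaTTATAAAattggcacataa
INTS13, chr12:26905252-26905281, minus strand: tttattttatgGTATAAAgtgttctctctg
INTS13, chr12:26905195-26905224, minus strand: ttctctttgcgAAATAAAactattaaaata
INTS7, chr1:211940407-211940436, minus strand: atttcctttttAAATAAAtatctgtttctt
PCF11, chr11:83184958-83184987, plus strand: aatttttttatGTATATAtagacatatcta
PCF11, chr11:83185761-83185790, plus strand: attcatacatgTAATAAAtagaatgatgaa
INTS12, chr4:105682631-105682660, minus strand: acactgtaattTAATAAAagtcttcataat
INTS6, chr13:51364020-51364049, minus strand: ctgttcctaaaTTATATAtatttagattct
INTS5, chr11:62646858-62646887, minus strand: tttttttttctAAATAAAatttgccaactt
CSTF2, chrX:100841486-100841515, plus strand: tgctcaagatgAAATAAAaacagaaatcaa

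The last *INTS13* site, the *INTS7* site, the second *PCF11* site and the *INTS12*, *INTS5* and *CSTF2* sites are the AATAAA signals nearest to the annotated transcript end. The first pair of *INTS13* sites, the first *PCF11* site and the *INTS6* site are AUA matches that are not AATAAA. A gene with high and a gene with low values can thus carry the same 7 letters, as *INTS7* and *INTS5* do in AAATAAA.

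Over all 35 genes, the median log2 fold change was -0.08, against 0.0046 for all listed genes, and 24 of 35 had a negative value, against 7888 of 15917. The negative median became 0.08 when each value was taken relative to genes of like base composition, as described further on. With the deposited Wald test and Benjamini-Hochberg adjustment over all listed genes, 2 of 35 (5.71%) passed an adjusted p of 0.05, and both were lower. Of all listed genes 6.19% passed, with 2.49% lower and 3.71% higher. At an unadjusted p under 0.05 there were 8 of 35 genes (22.9%), where the background was 21.2%. Both shares lie near those of the listed genes, so the 35 genes as a group did not stand out by the number called.

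Integrator genes covered a wider range of values than cleavage and polyadenylation genes. Of the 14 Integrator genes, 7 had an unadjusted p under 0.05, 4 with lower and 3 with higher values, and their log2 fold changes ran from -0.69 to 0.52. Of the 21 cleavage and polyadenylation genes, 1 (4.76%) had an unadjusted p under 0.05, and the values ran from -0.53 to 0.31. The median log2 fold change was -0.13 in Integrator and -0.08 in cleavage and polyadenylation genes. The median absolute Wald statistic, the change over its SE, was 1.87 in Integrator genes, 0.692 in cleavage and polyadenylation genes and 1.04 over all listed genes. Relative to genes of like base composition, as described further on, Integrator values ran from -0.27 to 0.46. On that scale cleavage and polyadenylation values ran from -0.31 to 0.49, so the distance from lowest to highest was no longer wider in Integrator. That distance rests on the extreme genes of groups of unequal size. It does not show that the Integrator values as a whole were no more spread, which was not compared on this scale. The difference between both groups was not tested.

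**Figure D1:**
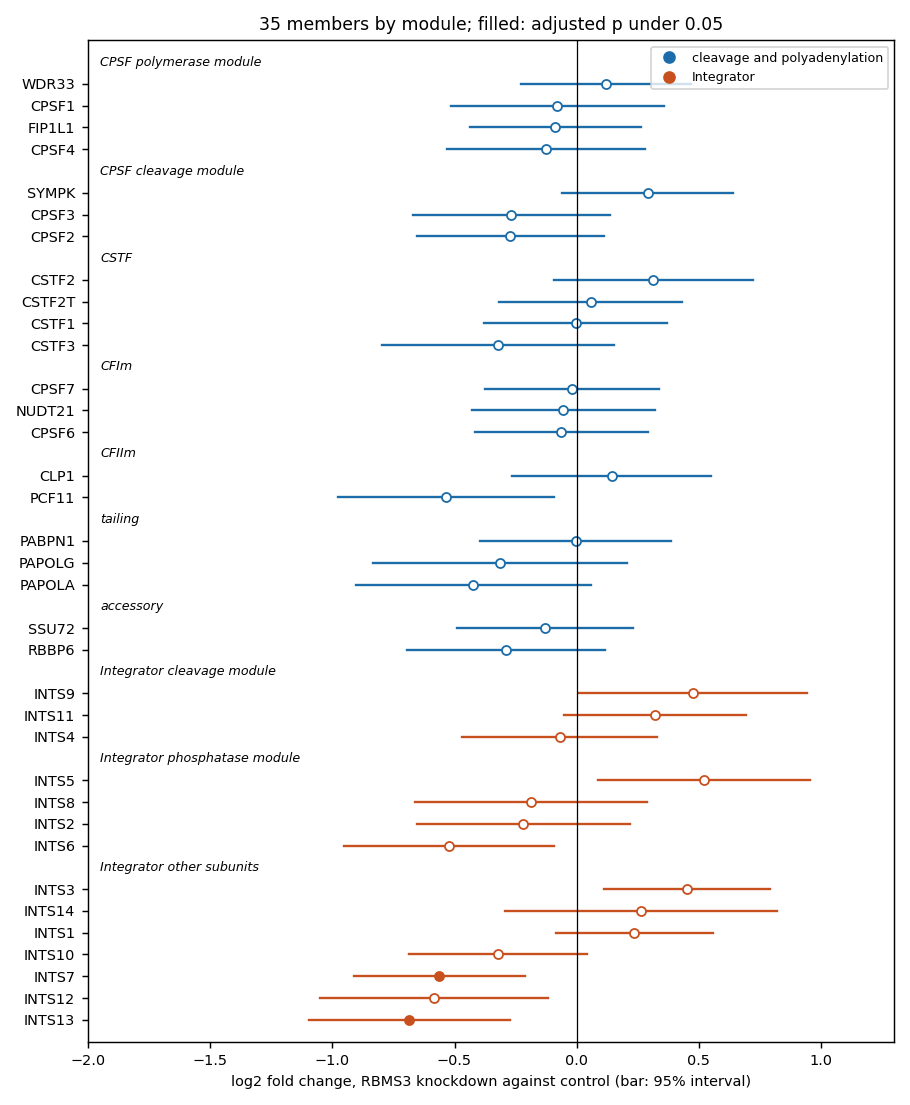
Log2 fold change of each of the 35 genes, knockdown against control, in rows grouped by module, with the 95% interval as a bar. Filled points are the 2 genes with an adjusted p under 0.05, *INTS13* and *INTS7*. The Integrator points lie on both sides of 0, from -0.69 to 0.52, while most cleavage and polyadenylation intervals cross 0.

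What could pass depends on expression. These genes were well measured. Their mean normalized counts were 182 to 3816, and 30 of 35 lay at or above the median of 364 over all listed genes. Their SEs were 0.165 to 0.284, with a median of 0.206, where the median over all listed genes was 0.259. The smallest absolute Wald statistic that passed was 2.96. At the median SE of the 35 genes a log2 change of 0.61 (1.53-fold) was needed to pass, at the lowest SE 0.49 (1.40-fold) and at the highest SE 0.84 (1.79-fold). These sizes are those of the estimate at a given SE and are not a detection limit for a true change. A gene that did not pass is not shown to be unchanged.

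**Figure D2:**
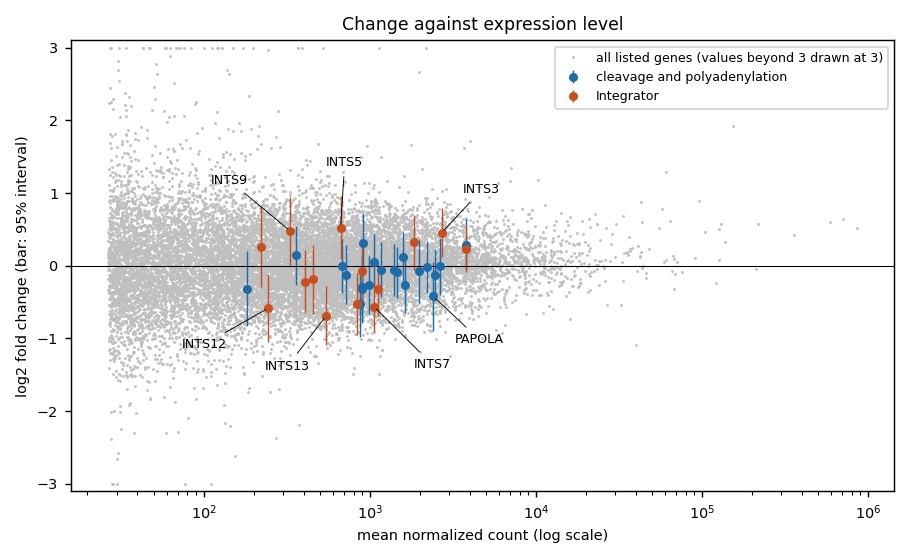
Log2 fold change (vertical axis) against mean normalized count (horizontal axis, log scale) for all 15917 listed genes in grey and for the 35 genes in colour with their 95% interval. The 35 genes sit between counts of 182 and 3816, where the grey cloud is narrower than at its left end, and their values stay within -0.69 and 0.52.

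The 3 lowest values belonged to Integrator subunits outside the nuclease and phosphatase modules. *INTS13* (chr12:26905181-26938326, minus strand), also known as Asunder, had a log2 fold change of -0.69 (SE 0.21, adjusted p = 0.0278) at a mean normalized count of 549, which left 62.1% of the control level. *INTS7* (chr1:211940399-212035557, minus strand), a helical-repeat subunit of the scaffold, had -0.56 (SE 0.18, adjusted p = 0.0345) at a mean normalized count of 1062, or 67.7% of the control level. *INTS12*, a PHD-finger subunit, had -0.58 (SE 0.24), which did not pass at an adjusted p of 0.115. Its log2 fold change was lower than that of *INTS7*, but its SE was larger at a mean normalized count of 246.

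*INTS10* and *INTS14* form a module of the complex with *INTS13*, and neither passed. *INTS10* had a log2 fold change of -0.32 (95% interval -0.69 to 0.04) and *INTS14* had 0.26 (95% interval -0.29 to 0.82). The interval of *INTS13*, -1.10 to -0.28, overlaps those of both, and the differences between these genes were not tested. *INTS3*, which also belongs to a single-stranded DNA-binding complex, had 0.45 (SE 0.17, adjusted p = 0.091), with an unadjusted p of 0.00891. *INTS1*, the largest scaffold subunit, had 0.24 (SE 0.16, adjusted p = 0.428).

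The nuclease of Integrator did not pass in either direction. *INTS11*, the endonuclease, had a log2 fold change of 0.32 (SE 0.19, adjusted p = 0.334), *INTS9*, its catalytically inactive partner, had 0.48 (SE 0.24, adjusted p = 0.223), and *INTS4*, the scaffold of this pair, had -0.07 (SE 0.20). Of these 3, *INTS9* alone had an unadjusted p under 0.05, at 0.0447. Among subunits grouped with the phosphatase, *INTS6*, which holds protein phosphatase 2A, had -0.52 (SE 0.22, adjusted p = 0.125), while *INTS5* had 0.52 (SE 0.22, adjusted p = 0.133). *INTS2* (-0.22, SE 0.22) and *INTS8* (-0.19, SE 0.24) lay between them. The intervals of *INTS6* (-0.95 to -0.09) and *INTS5* (0.09 to 0.96) did not overlap, although neither gene passed on its own and the difference between them was not tested.

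In CPSF, the values of the signal-reading polymerase module were close to 0. *WDR33* had a log2 fold change of 0.12 (95% interval -0.23 to 0.47) and *CPSF4* had -0.13 (95% interval -0.53 to 0.28), these being the subunits that contact AAUAAA. *CPSF1*, the scaffold, had -0.08 (SE 0.22), and *FIP1L1*, which recruits poly(A) polymerase, had -0.09 (SE 0.18). In the cleavage module, the endonuclease *CPSF3* had -0.27 (SE 0.21, adjusted p = 0.483) and its inactive partner *CPSF2* had nearly the same value, -0.27 (SE 0.20, adjusted p = 0.449). *SYMPK*, the scaffold that links them to other factors, had 0.29 (SE 0.18, adjusted p = 0.35). The upper ends of their 95% intervals correspond to 1.10-fold for *CPSF3* and 1.08-fold for *CPSF2*.

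CSTF and CFIm bind the RNA on both sides of the cleavage site. *CSTF2*, the subunit that binds downstream GU-rich RNA, had the highest value of all cleavage and polyadenylation genes, a log2 fold change of 0.31 (SE 0.21, adjusted p = 0.396). Its paralog *CSTF2T* had 0.06 (SE 0.19). *CSTF1* had -0.0037 (SE 0.19), and *CSTF3*, the dimeric scaffold, had -0.32 (SE 0.24, adjusted p = 0.47). All 3 CFIm genes were near 0. *NUDT21*, the subunit that binds UGUA and whose loss is known to shorten 3′UTRs, had -0.05 (95% interval -0.43 to 0.32), *CPSF6* had -0.06 (95% interval -0.42 to 0.29) and *CPSF7* had -0.02 (95% interval -0.38 to 0.34). The lower bounds correspond to a ratio to control of 0.742 for *NUDT21* and 0.749 for *CPSF6*.

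In CFIIm, *PCF11* had a log2 fold change of -0.53 (SE 0.23, adjusted p = 0.13) at a mean normalized count of 871, or 69.1% of the control level. This factor binds the polymerase tail and promotes termination, and it was the only one of 21 genes with an unadjusted p under 0.05. *CLP1*, the RNA kinase beside it, had 0.14 (SE 0.21). Of the tailing enzymes, *PAPOLA*, the main nuclear poly(A) polymerase, had -0.42 (SE 0.25, adjusted p = 0.317) and its paralog *PAPOLG* had -0.32 (SE 0.26, adjusted p = 0.531). *PABPN1*, the nuclear poly(A)-binding protein, had -0.0046 (SE 0.20). Of the accessory genes, *RBBP6*, a ubiquitin ligase needed for cleavage, had -0.29 (SE 0.21, adjusted p = 0.446) and the phosphatase *SSU72* had -0.13 (SE 0.18, adjusted p = 0.748).

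Levels of different genes can be compared only per length, here as the mean normalized count per kilobase of the representative transcript. On this scale *SSU72* was the highest at 1918 per kilobase, followed by *PABPN1* at 1472, *SYMPK* at 936 and *INTS11* at 876. *PAPOLG* was the lowest at 24.8, which is far below *PAPOLA* at 536. *CSTF2* (353) and *CSTF2T* (260) were nearer to each other, and *CPSF7* (631) stood above *CPSF6* (214). These levels are means over the libraries compared and have no spread here. *INTS13* had 208 and *INTS7* had 240 per kilobase, in the middle of the 35 genes.

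The change of these genes went with their base composition. A higher share of A and U at codon position 3 went with a lower log2 fold change, with a Spearman correlation of -0.80 over the 14 Integrator genes, -0.55 over the 21 cleavage and polyadenylation genes and -0.66 over all 35. The same correlation was -0.50 over 12322 listed genes, so this is a property of the whole comparison in which the 35 genes share. The points share the same libraries and the same model, and the correlation is a description. The share of A and U in the 3′UTR gave -0.79 for Integrator genes, -0.31 for cleavage and polyadenylation genes and -0.49 for 12348 listed genes.

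The split within Integrator can be read from the same values. The 8 Integrator genes with a negative log2 fold change had 49.1 to 68.7% A and U at codon position 3, and the 6 with a positive one had 12.5 to 54.3%. *INTS13* had the most at 68.7%, *INTS12* had 66.3% and *INTS7* had 59.7%, whereas *INTS1* had 12.5% and *INTS11* had 14.6%. Both ranges overlap, since *INTS10* (49.1%) and *INTS4* (52.0%) had a negative and *INTS14* (54.3%) a positive value. Among cleavage and polyadenylation genes *CPSF6* had the highest share of all 35, 73.4%, with a log2 fold change of only -0.06.

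**Figure D3:**
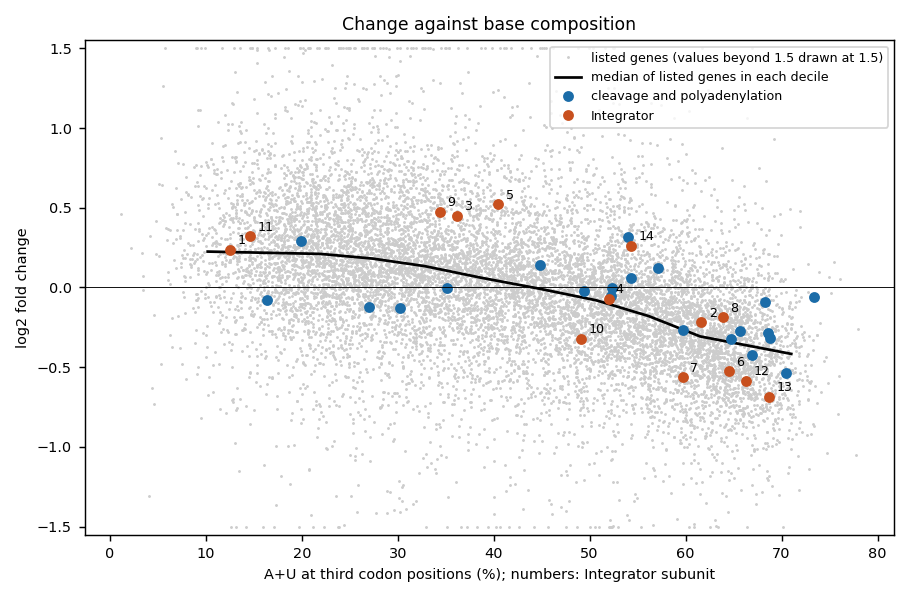
Log2 fold change (vertical axis) against the share of A and U at codon position 3 in percent (horizontal axis) for 12322 listed genes in grey, with the median of each of 10 equal parts of these genes as a line and the 35 genes as coloured points, Integrator points carrying their subunit number. The line falls from 0.23 at the left to -0.42 at the right, and *INTS13*, *INTS12* and *INTS7* lie below it while *INTS5*, *INTS9* and *INTS3* lie above.

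When the listed genes were divided into 10 equal parts by this share, the part with the least A and U had a median log2 fold change of 0.23, with 0.406% of genes called lower and 8.52% called higher. The part with the most had a median of -0.42, with 8.20% called lower and 0.0812% called higher, and 11 of the 35 genes were in it. Relative to the median of the part each belongs to, the 35 genes had a median of 0.08 and 11 of 35 were below 0, so the median changes sign when composition is considered. The median was 0.08 for cleavage and polyadenylation and 0.05 for Integrator genes. On this scale *CPSF4* and *CPSF1* stood lowest, both at -0.31 (log2), followed by *INTS13* at -0.27 and by *INTS7* and *SSU72* at -0.26. The highest were *CSTF2* at 0.49, *INTS5* at 0.46 and *INTS14* at 0.44. *CPSF6* (0.35), *FIP1L1* (0.33) and *WDR33* (0.30) also stood above genes of like composition. The part of base composition in these differences was not tested.

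A match to the AUA motif in the 3′UTR of the representative transcript was found in 29 of 35 genes (82.9%), against 84.8% of 12348 listed genes with a 3′UTR. Genes with a match had a median log2 fold change of -0.09 and the 6 without had 0.08, where all listed genes with a match had -0.05 and those without had 0.20. Relative to genes in the same part by codon composition, these medians were 0.08 with and 0.05 without a match among the 35 genes. Over all listed genes they were -0.01 and 0.08. The 6 genes without a match were *RBBP6*, *CPSF4*, *CPSF1*, *INTS1*, *INTS11* and *INTS3*. All 8 Integrator genes with a negative value have a match, as do 3 of the 6 with a positive one. Without matches that are AATAAA, 4 of these 8 and 1 of these 6 keep one. Both sets also differ in their median share of A and U at codon position 3, 62.8% against 35.3%. The share of the 35 genes with at least 1 match lies near that of the listed genes. With at least 3 matches the share was lower, 42.9% against 53.1%.

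Many of these matches have the form of the polyadenylation signal. Of 159 matches in the 35 genes, 66 (41.5%) are AATAAA with a base before it, against 36.0% over all listed genes, and in 14 of the 29 genes all matches are of this form. Without them, 15 of 35 genes (42.9%) keep a match, against 62.4% of listed genes. The paper reports AATAAA as the most significant motif at the RBMS3-binding sites it mapped. A match of this form can therefore not be counted as lacking the element tied to RBMS3. *INTS7*, one of the called genes, has 3 matches in a 3′UTR of 1421 bases, and all 3 are AATAAA. *INTS13* has 4 in only 316 bases, 3 of which are of another form. *PCF11* has 14 in 900 bases, in part because repeated TA runs give overlapping matches. The longest 3′UTR, that of *CPSF2* with 10401 bases, has 25, and its log2 fold change was -0.27. The signal AATAAA was found in 31 genes (88.6%, against 85.3% of listed genes), and in 26 genes it stands within 50 bases of the annotated end. TGTA, the DNA form of the CFIm site, was found in 30 genes (85.7%, against 88.7%).

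**Figure D4:**
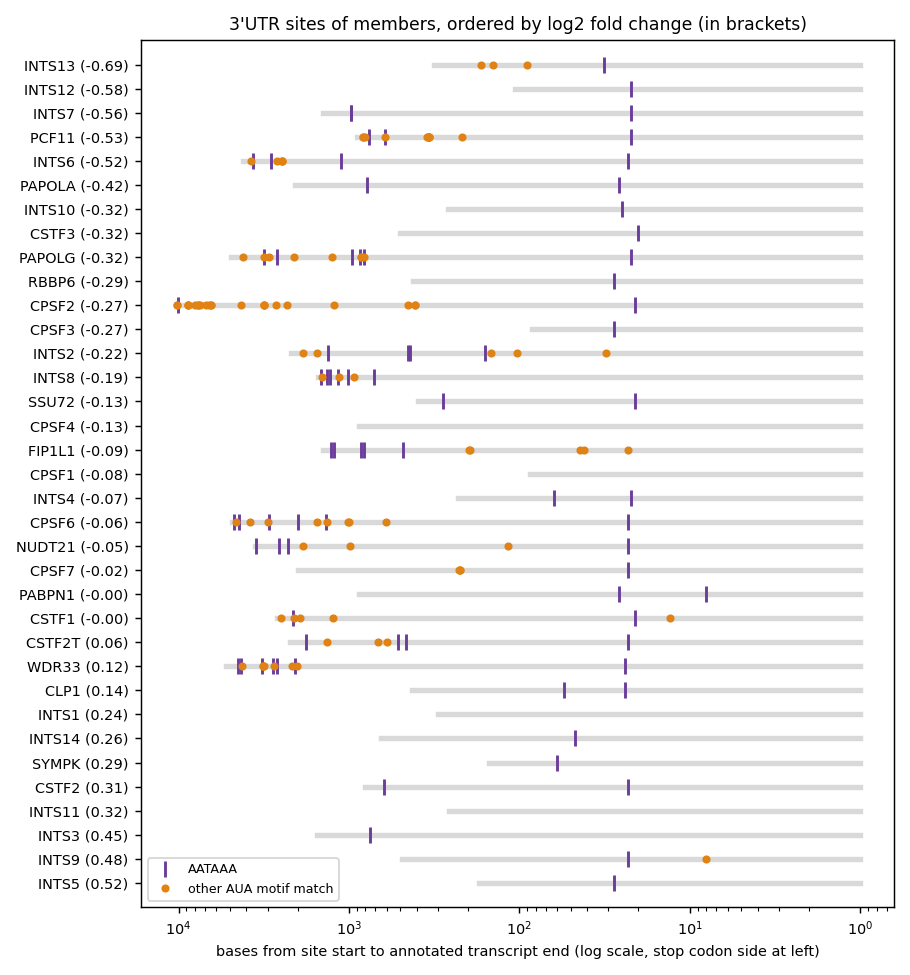
Position of AATAAA (violet bars) and of other AUA motif matches (orange points) in the 3′UTR of the 35 genes, as bases before the annotated transcript end on a log scale, with each 3′UTR as a grey bar. Rows run from the lowest log2 fold change (*INTS13*, -0.69) to the highest (*INTS5*, 0.52). In most rows an AATAAA stands within 50 bases of the end, and orange points occur in 15 of the 35 rows, from *INTS13* at the top to *INTS9* near the bottom.

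Several of these genes start beside another gene on the opposite strand. With a limit of 1000 bases between starts, 10 of them have a listed protein-coding partner, 11 pairs in all, and in 5 pairs both genes had a log2 fold change of the same sign. *DTL*, a ubiquitin ligase receptor that starts 4 bases from *INTS7*, had -0.26 (SE 0.19, adjusted p = 0.467), and *FGFR1OP2*, which starts 144 bases from *INTS13*, had -0.24 (SE 0.25, adjusted p = 0.63). Both partners lay nearer to 0 than the called genes and neither passed, but the differences within pairs were not tested. Of all 11 partners 1 passed, where the share over all listed genes was 6.19%. It was *RP11-286N22.8*, with a log2 fold change of 1.26 (SE 0.31, adjusted p = 0.00409). This gene starts 811 bases from the start of *CPSF7* and overlaps *CPSF7* on the opposite strand. *SDHAF2*, the other listed partner of *CPSF7*, starts 11 bases away and had 0.32 (SE 0.23). *INTS9* and *HMBOX1* had opposite signs, with -0.53 (SE 0.27) for *HMBOX1*, as had *CPSF2* and *NDUFB1*, a subunit of respiratory complex I, with 0.56 (SE 0.22) for *NDUFB1*.

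**Figure D5:**
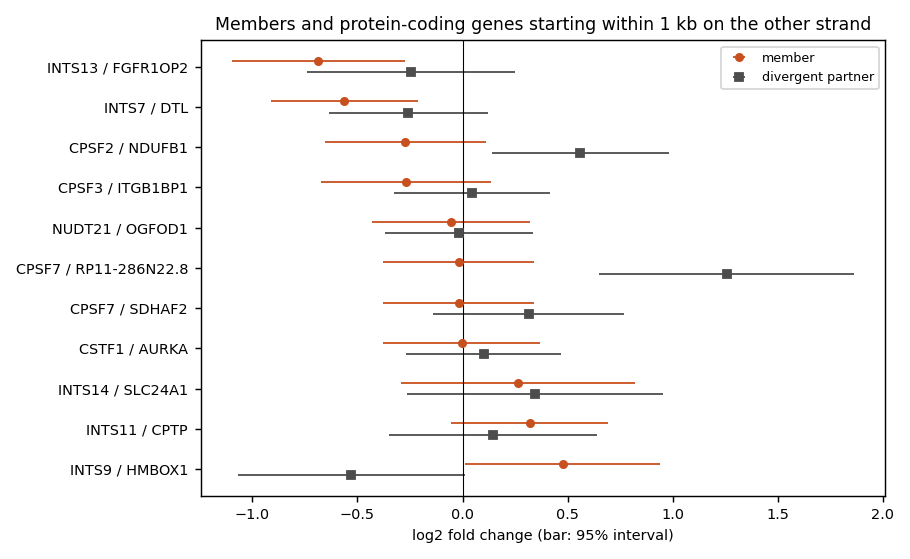
Log2 fold change with 95% interval of each gene of the set (circles) and of the listed protein-coding gene that starts within 1000 bases on the opposite strand (squares), for 11 pairs. *DTL* at -0.26 and *FGFR1OP2* at -0.24 lie nearer to 0 than *INTS7* and *INTS13*. *RP11-286N22.8*, a partner of *CPSF7*, lies at 1.26, while *CPSF7* lies at -0.02.

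Sequence shared with other genes limits some values. *PABPN1* shares exons with the read-through gene *BCL2L2-PABPN1*, listed separately with a log2 fold change of -0.23 (SE 0.28) at a mean normalized count of 192. *INTS4* has a copy, *INTS4L2*, with -0.13 (SE 0.45) at 45.2. In all, 5 of the 35 genes overlap another listed gene on the same strand. The authors used Salmon, but its settings for reads shared by such genes are not given in the sources used here. The values of *PABPN1* and *INTS4* are uncertain to that extent.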

How the data were processed

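Total RNA of MDA-MB-231 cells was sequenced in 6 libraries, 2 per hairpin group, made with a stranded low-input kit that includes removal of ribosomal cDNA. Per the submitters' processing notes, Salmon, DESeq2 and hg38 were used by the authors, with no versions given in the sources used here. The file analysed is the authors' deposited comparison of knockdown with control cells, and no count table entered. Its deposited columns are, per gene, a log2 fold change with an SE in log2 units, a score that is the ratio of both (a Wald statistic) in all 15917 rows, and a p-value from the normal distribution with both tails counted. The deposited signal is the mean normalized count, at least 26.7, so genes of lower expression were not analysed here. No library depth can be had from it, and its precision is that of the SE.

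The p-values of the 15917 rows were adjusted anew by the Benjamini-Hochberg method, with a threshold of 0.05, whereas at the lowest p-value the deposited adjusted p-value corresponds to 15991 tests. The design foresaw either a count test or, for a table of this kind, the test used here. Identifiers were joined to GENCODE release 44 (15829 matched), whose coordinates are given, and all 172 sequence windows read matched hg38. 3′UTRs of at least 7 bases of the representative transcript were searched. Named are genes that passed, the 3 lowest and 3 highest of both groups, catalytic and signal-reading subunits and paralogs, with modules described by all their genes. The genes, lists and tests were chosen with earlier results of these data known, and the functions were tested on simulated data. Alternatives were the threshold, centring, a limit to well expressed genes, a weighted mean, the longest 3′UTR, the number of motif matches and gene partners under other symbols. The scripts ran on SciPy 1.17.1, pandas 2.3.3 and numpy 2.4.6 in Python 3.11.15, and plots on matplotlib 3.10.9.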

Additional observations from a re-analysis of the deposited data

How the results depend on the processing

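The count of called genes was 2 with the deposited adjusted p-value and among the 30 genes at or above the median mean normalized count. It was 0 at an adjusted p under 0.01, where *INTS13* and *INTS7* no longer passed. At an unadjusted p under 0.05 it was 8 (22.9%, against 21.2% of listed genes), which added *INTS12*, *INTS6*, *PCF11*, *INTS3*, *INTS9* and *INTS5*. The Integrator median, -0.13, was -0.16 with partners under other symbols, -0.19 among genes at or above the median mean normalized count and -0.055 as a mean weighted by precision. Relative to genes in the same of 10 equal parts by codon composition, an alternative chosen after the data were seen, the medians were 0.080 for all 35 genes, 0.080 for cleavage and polyadenylation and 0.049 for Integrator, so that all 3 turned positive. The number of genes with the AUA motif was 15 with at least 3 matches (42.9%, against 53.1% of listed genes) and 28 in the longest annotated 3′UTR. It was also 15 without matches that are AATAAA (42.9%, against 62.4%), an alternative likewise chosen after the data were seen. Centring on all listed genes turned no direction. No paired analysis was possible because each gene has a single value for the whole comparison and none per replicate. For the same reason leaving out each replicate and testing each hairpin alone were not run, and what 1 library contributes cannot be seen.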

Other observations

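Genes that act beside this machinery were described from 5 lists of 39 genes, all 39 of which are listed. Of these, 2 were lower and 1 was higher at an adjusted p under 0.05 (Wald test, Benjamini-Hochberg adjustment over all listed genes), and their median log2 fold change was -0.02. Of all listed genes 2.49% were lower and 3.71% higher, so 3 of 39 lies near the background and the lists are given as a description. *PAPD4*, a cytoplasmic poly(A) polymerase, fell by 0.87 (SE 0.26, adjusted p = 0.0262) on the log2 scale. *NPAT*, the activator of replication-dependent histone genes, fell by 0.81 (SE 0.25, adjusted p = 0.0294). *SUPT5H*, an elongation factor, rose with a log2 fold change of 0.53 (SE 0.17, adjusted p = 0.0415). Of the 7 Integrator partners none passed, and 3 had an unadjusted p under 0.05, where the background was 21.2%. These were *NABP1* (-0.57, SE 0.21) and *INIP* (-0.51, SE 0.24), which form the single-stranded DNA-binding complex with *INTS3*, and *PPP2R1A* (0.46, SE 0.20), the phosphatase scaffold. *INTS3* had a value of the opposite sign, 0.45, to those of *NABP1* and *INIP*. The share of A and U at codon position 3 also differed, with 36.1% in *INTS3*, 62.4% in *NABP1* and 64.8% in *INIP*. The part of base composition in this difference was not tested. Of 14 genes of polymerase II termination 1 passed (*SUPT5H*), of 7 genes of histone 3′-end formation 1 (*NPAT*), of 8 other poly(A) proteins 1 (*PAPD4*), and of 3 U1 proteins none. The list medians were -0.08 for Integrator partners, 0.06 for termination, -0.08 for histone 3′-end formation, -0.17 for other poly(A) proteins and 0.24 for U1 proteins, against 0.0046 over all listed genes.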
